A study of Mus musculus with 18 samples.

Results

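The genes examined were Dusp1, Dusp2, Dusp6, Dusp10, Dusp14 and Dusp18, which encode dual-specificity phosphatases. They are 6 of the 12393 genes and hold 7 of the 22690 probe sets of a mouse expression array, taken as every probe set annotated to 1 of these symbols. Dusp10 has 2 probe sets and each other gene has 1. The list was chosen by name, with earlier signals and flight comparisons of these arrays known and no cut-off given. The changes after flight are therefore a description, and the p values printed with them are those of a fit over the whole array.

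Dual-specificity phosphatases remove phosphate from serine or threonine and from tyrosine residues. The typical members, the MAP kinase phosphatases, carry a docking domain for MAP kinases and switch off ERK, p38 or JNK by dephosphorylating both residues of the activation loop, and many are themselves induced by the pathway that they end. The atypical members are small, lack that docking domain, and act on a wider range of substrates. In skeletal muscle the MAP kinases respond to contraction, stretch and cell stress. Dusp1, Dusp2, Dusp6 and Dusp10 are typical members, and Dusp14 and Dusp18 are atypical.

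RNA was measured in soleus, a slow postural muscle of the calf, and in EDL (extensor digitorum longus), a fast muscle of the lower leg. Adult male C57BL/N6 mice, written C57/BL6 in the sample labels, were in 3 groups. BF (Bion Flown) mice spent 30 days in microgravity aboard the Bion M1 biosatellite. FC (Flight Control) mice stayed in a standard animal facility, and BG (Bion Ground) mice lived on the ground in the flight habitat. Each group had 3 soleus and 3 EDL arrays. BF and BG mice ate paste food and FC mice standard chow, and only BF mice landed and were carried to the laboratory before dissection. In comparisons with FC the food cannot be told apart from the group, and in BF landing and transport cannot be told apart from flight. Whether a soleus and an EDL of the same number came from 1 mouse was not given in the sources used here. The p values rest on the spread between samples within groups, taken as 1 value per probe set for all 6 groups. A larger spread in 1 group, as in BF soleus, is therefore not carried on its own.

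The values are log2 signals, and a difference of 1 between log2 values is 2-fold. Array medians ran from 6.17 to 6.26, and arrays of the same group correlated at 0.978 to 0.995. The muscle labels were checked with fibre markers. The summed linear signal of 8 slow fibre markers was 58433 to 80342 in BF soleus, 107776 to 109687 in FC soleus and 108872 to 111619 in BG soleus, against 1615 to 15095 over all EDL arrays. The sum of 9 fast fibre markers was 99907 to 128431 in BF soleus, 68440 to 79473 in FC soleus and 72426 to 81287 in BG soleus, against 132249 to 141990 over all EDL arrays. An array has no true zero and no detection calls were used here, so a low signal is not read as absence.

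In soleus of BF vs. BG mice, the signals of Dusp10 and Dusp2 rose, that of Dusp18 fell, and Dusp1, Dusp6 and Dusp14 did not pass an adjusted p under 0.05 (limma, adjusted over 22626 probe sets). Across the array 22.3% of probe sets passed in this comparison, 10.3% higher and 11.9% lower. The same 3 genes passed in BF vs. FC, where 23.7% of probe sets did, 9.94% higher and 13.8% lower, and both comparisons use the same BF arrays. The 3 BF arrays did not overlap the ground arrays for the same 3 genes. In BF vs. BG, 20.6% of probe sets had all BF arrays higher and 18.1% all lower, and in BF vs. FC these shares were 16.7% and 19.8%. The median log2 fold change of the 6 genes in BF vs. BG was -0.09, beside 0.04 over all probe sets. In bulk muscle, fewer cells of a type and less RNA per cell cannot be told apart.

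**Figure D1:**
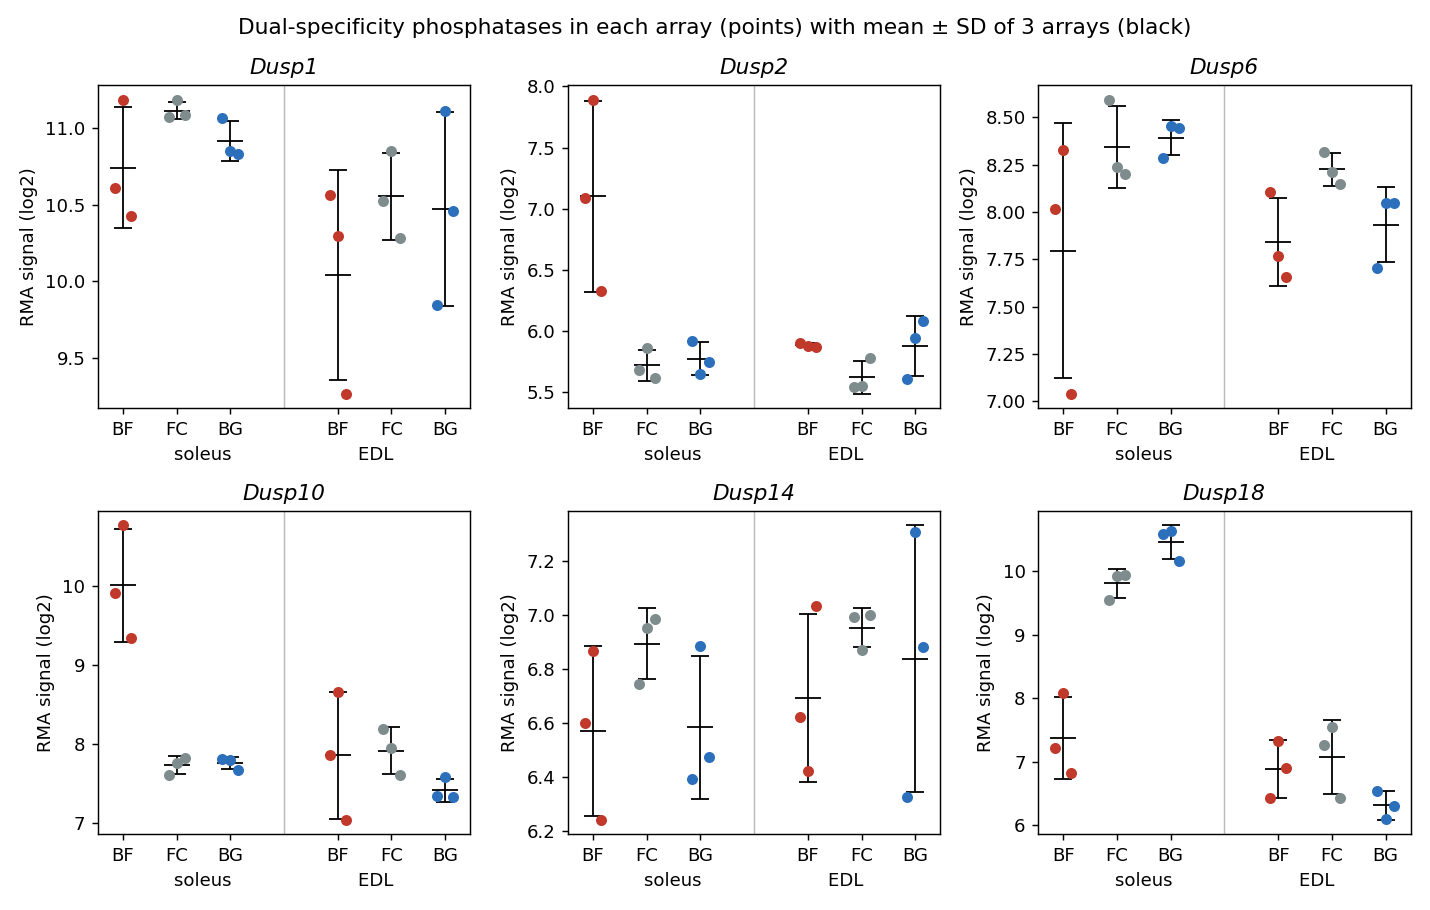
Signal of each gene (log2, vertical axis) in every array, in BF, FC and BG of soleus and EDL; points are arrays and black marks the mean ± SD of 3 arrays, on a separate scale for each gene. Dusp10 and Dusp2 stand apart in BF soleus, Dusp18 is lower in BF soleus than in both other soleus groups, and most EDL groups overlap.

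Dusp10 (MKP-5), a phosphatase of p38 and JNK, had the largest increase of the 6 genes. Its signal (probe set 1417164_at) was 9.91, 10.76 and 9.33 in the 3 BF soleus arrays, against 7.61, 7.75 and 7.82 in FC soleus and 7.80, 7.79 and 7.67 in BG soleus. Every BF array lay above every FC and BG array, and the BF arrays spread far more than the others (SD 0.72 in BF, 0.11 in FC and 0.07 in BG). The increase over BG was 2.25 ± 0.33 on the log2 scale (SE; 95% interval 1.56 to 2.94), a 4.75-fold change with an adjusted p of 0.000225. Over FC it was 2.27 ± 0.33 (adjusted p = 0.00014). The other probe set of the gene (1417163_at) gave 7.62, 8.49 and 7.17 in BF soleus, against 6.22, 5.88 and 6.20 in FC soleus and 5.23, 5.79 and 5.87 in BG soleus. It also set BF apart from both ground groups, by 2.13 ± 0.31 over BG (adjusted p = 0.000236) and 1.66 ± 0.31 over FC (adjusted p = 0.00108).

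Dusp2 (PAC-1), a nuclear phosphatase first described in activated lymphocytes, rose as well. Its signal (1450698_at) was 7.09, 7.89 and 6.33 in BF soleus, against 5.68, 5.86 and 5.62 in FC soleus and 5.92, 5.65 and 5.75 in BG soleus. All BF arrays lay above all ground arrays, although the lowest BF array was only slightly above them, and the ground signals were below the array medians. The SD was 0.78 in BF, 0.12 in FC and 0.13 in BG, while the SE given next comes from the spread shared by all 6 groups. The increase was 1.33 ± 0.25 over BG (95% interval 0.80 to 1.85; 2.51-fold; adjusted p = 0.00149) and 1.38 ± 0.25 over FC (adjusted p = 0.000806).

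Dusp1 (MKP-1), the inducible nuclear phosphatase of p38 and JNK and itself an immediate early gene, did not pass. It had signals of 10.61, 11.19 and 10.43 in BF soleus (1448830_at), against 11.07, 11.18 and 11.09 in FC soleus and 11.07, 10.85 and 10.83 in BG soleus. The BF arrays spanned the ground range, with replicate 2 at its top and the others below it. The difference was -0.17 ± 0.31 from BG (95% interval -0.82 to 0.47; adjusted p = 0.716) and -0.37 ± 0.31 from FC (adjusted p = 0.411). The interval excludes an increase of the size seen for Dusp10 or Dusp2, and it holds decreases down to its lower end.

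The promoters of these 3 inducible phosphatases are shown because Dusp10 and Dusp2 passed the test and Dusp1 did not. Each is the 250 bases before the annotated start, 5′ to 3′ on the gene's strand, from RefSeq (GRCm38.p6), with capitals marking matches to the motifs searched on both strands. These were TGACGTCA for the CRE, CACGTG for the E-box, TGANTCA for AP-1, CCAAT for the CCAAT box and TATAAA for the TATA box, with the SRF CArG box and the MEF2 site given by name; none of the marked matches overlap.
Dusp1 (chr17:26508473-26508722, minus strand): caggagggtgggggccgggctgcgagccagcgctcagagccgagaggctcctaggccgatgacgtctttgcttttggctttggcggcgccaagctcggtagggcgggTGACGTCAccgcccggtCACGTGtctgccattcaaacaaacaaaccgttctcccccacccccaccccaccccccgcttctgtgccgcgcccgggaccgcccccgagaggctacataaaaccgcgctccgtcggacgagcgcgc
Dusp2 (chr2:127335909-127336158, plus strand): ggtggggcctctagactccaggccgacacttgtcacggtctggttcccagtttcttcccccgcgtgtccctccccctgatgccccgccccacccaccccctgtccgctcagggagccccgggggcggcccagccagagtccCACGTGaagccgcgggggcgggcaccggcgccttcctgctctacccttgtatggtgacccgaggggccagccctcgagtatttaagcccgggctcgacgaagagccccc
Dusp10 (chr1:184034131-184034380, plus strand): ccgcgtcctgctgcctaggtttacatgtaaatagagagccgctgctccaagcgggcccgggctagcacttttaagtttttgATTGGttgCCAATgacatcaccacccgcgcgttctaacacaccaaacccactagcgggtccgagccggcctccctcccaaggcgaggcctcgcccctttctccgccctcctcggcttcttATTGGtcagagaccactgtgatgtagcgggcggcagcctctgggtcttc
The Dusp1 window held 1 CRE match that began 143 bases before the start and 1 E-box match at 126 bases. The Dusp2 window held 1 E-box match, at 109 bases. The Dusp10 window held 3 CCAAT box matches, at 169, 161 and 49 bases, the first and last of them on the opposite strand. Of 32851 promoter windows of this length, 1.55% held a CRE, 6.02% an E-box and 33.8% a CCAAT box. These windows were rich in G and C, with 68.4% in Dusp1, 70.4% in Dusp2 and 59.6% in Dusp10, beside a median of 52.4% over all windows. The Dusp6 window held 1 CCAAT box match, and those of Dusp14 and Dusp18 held no match to the motifs searched. A match is a run of letters and was not tested as a binding site.

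Dusp6 (MKP-3), the cytoplasmic phosphatase specific for ERK, had signals of 8.02, 8.33 and 7.04 in BF soleus (1415834_at), against 8.59, 8.24 and 8.20 in FC soleus and 8.29, 8.45 and 8.44 in BG soleus. A single BF array was far below all others and another lay within the ground range. The difference was -0.60 ± 0.23 from BG (95% interval -1.08 to -0.11; adjusted p = 0.0717) and -0.55 ± 0.23 from FC (adjusted p = 0.0949), neither of which passed. Without BF soleus replicate 2, the highest of the group, the differences were -0.86 (adjusted p = 0.0123) and -0.82 (adjusted p = 0.015), and both passed. With array weights the BF vs. BG difference of -0.54 also passed (adjusted p = 0.0279). In other fits with 1 array left out, the differences were as small as -0.22 from BG and -0.17 from FC. Over all alternatives the adjusted p reached 0.35 against BG and 0.493 against FC. The outcome of not passing was kept in 25 of 27 alternatives against BG and 26 of 27 against FC.

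Dusp18, a small atypical phosphatase located at mitochondria in rat, fell the most. Its signal (1451270_at) was 7.21, 8.08 and 6.82 in BF soleus, against 9.55, 9.93 and 9.95 in FC soleus and 10.58, 10.64 and 10.15 in BG soleus. The BF arrays lay below the FC arrays and the FC arrays below the BG arrays, with no overlap. BF was lower than BG by 8.50-fold (log2 -3.09 ± 0.31, 95% interval -3.73 to -2.44, adjusted p = 9.79e-06) and lower than FC by 5.42-fold (log2 -2.44 ± 0.31, adjusted p = 4.79e-05). Another gene model, 4921536K21Rik, overlaps Dusp18 in RefSeq, and whether the probe set also reads its RNA was not tested.

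Dusp14 (MKP-6), an atypical phosphatase that limits T cell receptor signalling, showed no separation. It had signals of 6.60, 6.87 and 6.24 in BF soleus (1431422_a_at), against 6.74, 6.95 and 6.99 in FC soleus and 6.39, 6.89 and 6.48 in BG soleus. The 3 groups overlapped. The difference was -0.01 ± 0.22 from BG (95% interval -0.47 to 0.44; adjusted p = 0.969) and -0.32 ± 0.22 from FC (adjusted p = 0.305).

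**Figure D2:**
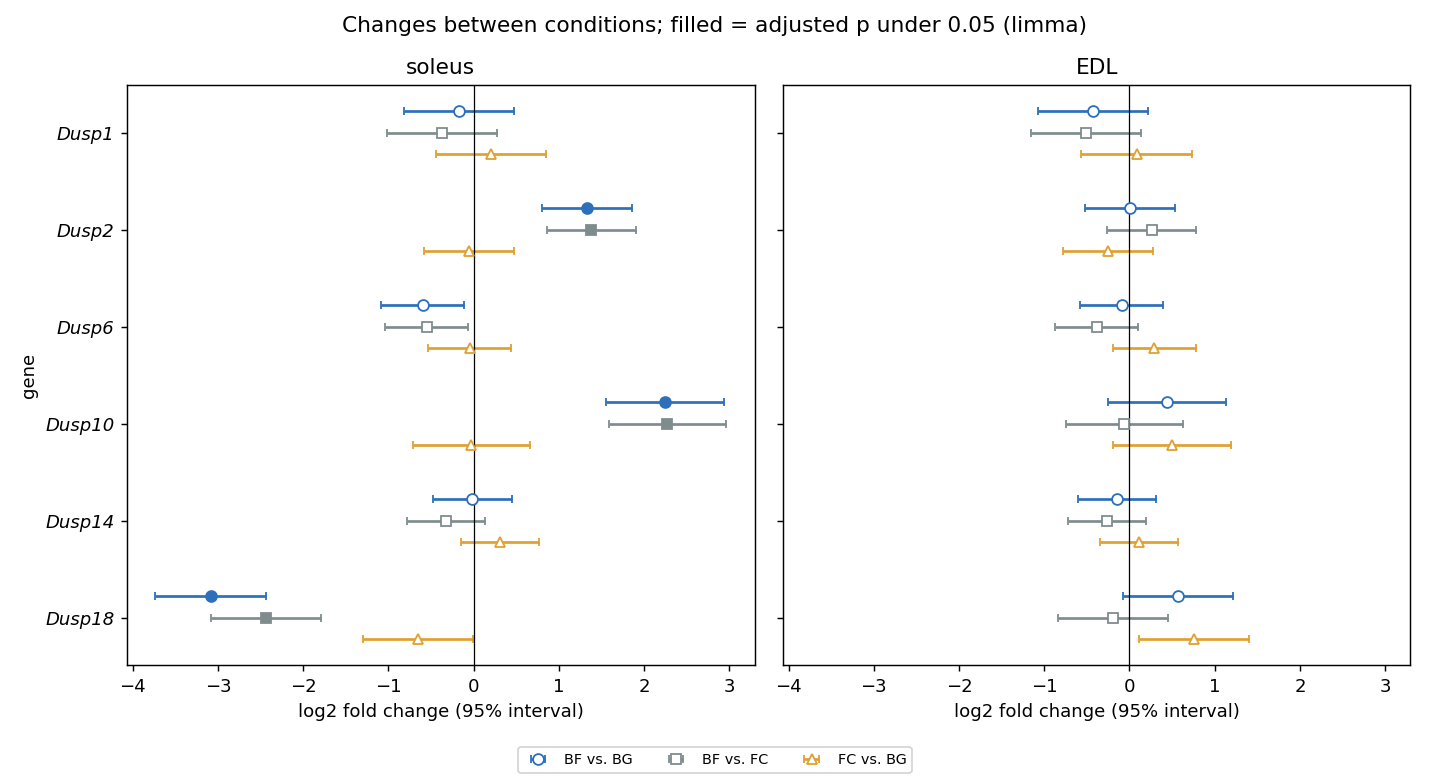
Log2 fold change (horizontal axis) with its 95% interval for each gene (vertical axis) in BF vs. BG, BF vs. FC and FC vs. BG, in soleus (left) and EDL (right); filled points have an adjusted p under 0.05. Filled points are Dusp2, Dusp10 and Dusp18 in the BF comparisons of soleus, and none in EDL.

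None of the 6 genes passed between the ground groups of soleus (FC vs. BG, limma), a comparison in which 11.4% of probe sets passed. At an unadjusted p under 0.05 there was 1 (Dusp18). Here and below, counts at an unadjusted p stand without the share of all probe sets at that cut-off and are not read as results. For Dusp18 the difference of FC from BG was -0.65 on the log2 scale (95% interval -1.30 to just below 0; unadjusted p = 0.0489, adjusted p = 0.186), with all FC arrays below all BG arrays. Dusp1 was 0.20 higher in FC than in BG, with all FC arrays above all BG arrays (adjusted p = 0.731). Such separation of the arrays was common, at 19.8% of probe sets higher and 15.7% lower in FC. The differences of Dusp10 and Dusp2 between FC and BG were -0.03 and -0.05. The other probe set of Dusp10 gave 0.47 (adjusted p = 0.36), with all FC arrays above all BG arrays.

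The BF soleus arrays differed from each other in a shared order. For all 6 genes replicate 2 was the highest and replicate 3 the lowest, an order found in 19.4% of all probe sets. The median SD of the 6 genes in BF soleus was 0.66, beside 0.18 over all probe sets. In FC soleus it was 0.13 beside 0.14, and in BG soleus 0.13 beside 0.12. In EDL it was also above that of all probe sets, at 0.38 beside 0.16 in BF, 0.21 beside 0.13 in FC and 0.23 beside 0.15 in BG. Thus in BF soleus the array with the highest Dusp10 and Dusp2 had the highest Dusp18 too, while Dusp18 was lower in the group as a whole. The mean log2 level of 21 immediate early genes and ERK targets had the same order, at 8.28, 8.81 and 7.60 in BF soleus replicates 1, 2 and 3, against 7.10 to 7.16 in FC soleus and 7.10 to 7.47 in BG soleus. Marker lists had this order too, with means of 9.67, 10.51 and 9.16 for adipocyte markers and 7.57, 7.72 and 7.33 for endothelial markers. Macrophage markers (6.92, 7.59 and 7.01) and slow fibre markers (12.43, 12.93 and 12.47) were also highest in replicate 2. Fast fibre markers (13.54, 13.08 and 13.50) were lowest there, and lymphocyte markers were at 4.90 in replicates 1 and 2 and higher in replicate 3. The part of these markers in the differences between the BF arrays was not tested.

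**Figure D3:**
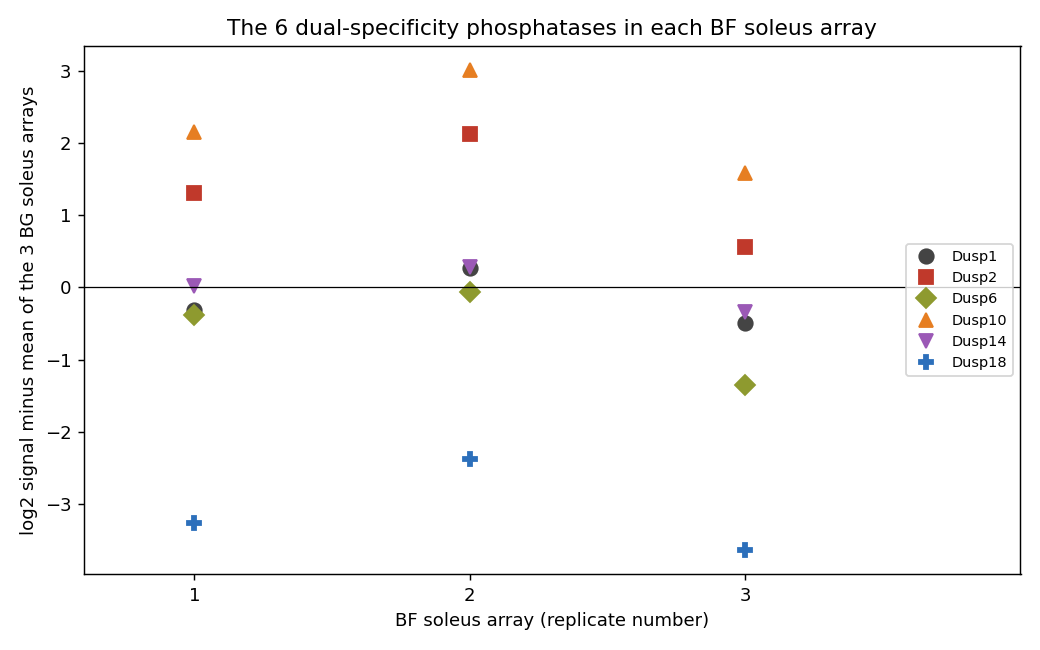
Log2 signal of each gene in the 3 BF soleus arrays (horizontal axis, replicate number) minus its mean in the 3 BG soleus arrays (vertical axis); the line at 0 is the BG mean. Every gene is highest in replicate 2 and lowest in replicate 3, while Dusp10 and Dusp2 stay above the line and Dusp18 below it.

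In EDL none of the 6 genes passed in any comparison, with limma or under any alternative tried. At an unadjusted p under 0.05 the counts were 0 in BF vs. BG, 0 in BF vs. FC and 1 in FC vs. BG. Few probe sets passed in EDL at all, 0.385% in BF vs. BG, 3.77% in BF vs. FC and 0.0354% in FC vs. BG. Dusp10 was 7.86, 8.65 and 7.04 in BF EDL, against 8.19, 7.95 and 7.60 in FC EDL and 7.33, 7.58 and 7.32 in BG EDL. The BF arrays covered the range of both ground groups, and the difference was 0.44 from BG (95% interval -0.25 to 1.13; adjusted p = 0.648) and -0.06 from FC (adjusted p = 0.956). Its other probe set gave -0.59 from FC, with all BF arrays below all FC arrays (adjusted p = 0.343). Dusp18 was 6.42, 7.32 and 6.90 in BF EDL, against 7.25, 7.54 and 6.42 in FC EDL and 6.54, 6.09 and 6.30 in BG EDL. Its differences were 0.57 from BG (95% interval -0.08 to 1.22; adjusted p = 0.487) and -0.19 from FC (adjusted p = 0.818), with overlapping arrays.

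Dusp2 was 5.90, 5.88 and 5.87 in BF EDL, against 5.54, 5.55 and 5.78 in FC EDL and 5.61, 5.94 and 6.08 in BG EDL. The BF arrays were nearly equal and lay within the BG range and above the FC range (0.01 from BG, adjusted p = 0.995; 0.26 from FC, adjusted p = 0.658). Dusp1 was 10.57, 10.30 and 9.26 in BF EDL, against 10.52, 10.85 and 10.28 in FC EDL and 9.84, 11.11 and 10.46 in BG EDL. Replicate 3 of BF was the lowest of these, and the difference was -0.43 from BG (adjusted p = 0.629) and -0.51 from FC (adjusted p = 0.424). Dusp6 lay below FC in all BF EDL arrays (-0.38, adjusted p = 0.427) and overlapped BG (-0.09, adjusted p = 0.917). Dusp14 overlapped in every EDL comparison, with differences of -0.15 from BG and -0.26 from FC. In BF vs. FC, 11.3% of probe sets had all BF EDL arrays higher and 12.4% all lower. In FC vs. BG of EDL Dusp18 differed by 0.76 (unadjusted p = 0.0237, adjusted p = 0.346), and the other probe set of Dusp10 by 0.85 (unadjusted p = 0.0137, adjusted p = 0.301).

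The difference between muscles in the flight response was tested as an interaction, the change in soleus minus the change in EDL. Against BG it passed for Dusp18 (-3.66 ± 0.43, adjusted p = 0.000235), Dusp10 (1.81 ± 0.46, adjusted p = 0.0251) and Dusp2 (1.32 ± 0.35, adjusted p = 0.0296), where 9.27% of probe sets passed. Against FC it passed for Dusp10 (2.33 ± 0.46, adjusted p = 0.0143) and Dusp18 (-2.25 ± 0.43, adjusted p = 0.0129), where 1.79% of probe sets passed, and missed for Dusp2 (1.12 ± 0.35, adjusted p = 0.116). Both sets of differences use the same BF arrays. Apart from Dusp18 against BG, these calls were near the threshold. Without moderation (ordinary contrasts) the value against BG was an adjusted p of 0.0663 for Dusp10 and 0.0694 for Dusp2, and in BF vs. FC it was 0.0646 for Dusp10 and 0.0607 for Dusp18. Dusp1, Dusp6 and Dusp14 did not pass in either.

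Between the muscles of the ground groups, Dusp18 differed the most of the 6 genes. Soleus exceeded EDL by 2.74 on the log2 scale in FC (adjusted p = 1.87e-05) and by 4.15 in BG (95% interval 3.50 to 4.79; adjusted p = 2.31e-07), with all soleus arrays above all EDL arrays. In BF the difference was 0.49 (95% interval -0.16 to 1.14; adjusted p = 0.316), and the arrays of the muscles overlapped. Dusp10 and Dusp2 had the opposite pattern. In BF, soleus exceeded EDL by 2.15 for Dusp10 (adjusted p = 0.00122) and by 1.22 for Dusp2 (adjusted p = 0.00692), where 11.7% of probe sets passed. Neither passed in FC (-0.18 and 0.10) or in BG (0.34 and -0.10), where 15.1% and 16.1% of probe sets passed. Dusp1 was higher in soleus in each condition, by 0.70 in BF, 0.56 in FC and 0.45 in BG, none of which passed (adjusted p = 0.146, 0.255 and 0.35).

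The order of the group means was therefore not the same for each gene. For Dusp10 and Dusp2, BF soleus was the highest group and its range did not meet that of the next, and the remaining groups mostly overlapped with their neighbours. For Dusp18 the order was BG soleus, FC soleus and BF soleus, each apart from the next, and BF soleus then overlapped FC and BF EDL and lay above BG EDL. For Dusp1 the soleus groups came before the EDL groups, for Dusp6 BF soleus was last, and for Dusp14 every neighbouring pair of groups overlapped.

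Genes with the most similar signal pattern were ranked by Pearson correlation over all 18 arrays among 12392 other genes, as a description. They were Map3k8, Ccl7 and Adpgk for Dusp2 (each r = 0.96), Adpgk, Azin1 and Sncg for Dusp10 (0.94, 0.94 and 0.93) and Wfs1, Gstm7 and Idh2 for Dusp18 (each 0.97). In the 9 soleus arrays the nearest to Dusp18 was Calr, followed by Myl2, the slow myosin light chain, and Bdh1, each at 0.98. There they were Adpgk, Ccl2 and Ly6d for Dusp2 and Adss, Zfp354b and Vcl for Dusp10, each at 0.99. In the 9 EDL arrays they were Acss2, Bcdin3d and Myf5 for Dusp18 (0.94, 0.93 and 0.93). For Dusp2 they were Sox4, Scml2 and Mpp4 (0.96, 0.93 and 0.92), and for Dusp10 Masp2, Plpp1 and Lats2 (0.94, 0.93 and 0.92). Over all 18 arrays the nearest to Dusp1 were Wasf2, Ccn2 and Emp2 (0.92, 0.90 and 0.88). To Dusp6 they were Tram1, Myo1d and Tanc1 (0.84, 0.81 and 0.79), and to Dusp14 Stard3, Gstt2 and Per3 (0.77, 0.74 and 0.74). For Dusp1, Dusp6 and Dusp14 the rankings within each muscle are not given here. The arrays share groups and muscles, so a gene that differs between the same groups ranks high.

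The rest of the family was measured for comparison. Of 12 other Dusp genes, Dusp13 and Dusp9 rose in soleus of BF vs. BG, Dusp22 fell and 9 did not pass, a share near the 22.3% of all probe sets that passed. Dusp13, which encodes a phosphatase of muscle and testis, averaged 10.50 ± 0.51 in BF soleus, against 9.06 ± 0.24 in FC soleus and 8.86 ± 0.13 in BG soleus (SD, n = 3 each). It rose by 1.64 ± 0.21 over BG (adjusted p = 9.16e-05) and 1.44 over FC (adjusted p = 0.000183), and its interaction with muscle passed, at 2.05 in BF vs. BG (adjusted p = 0.0016) and 1.60 in BF vs. FC (adjusted p = 0.0121). Soleus was above EDL for Dusp13 in BF (0.71) and below it in FC (-0.89) and BG (-1.34), and each difference passed. Dusp9, an ERK phosphatase, rose by 0.52 (adjusted p = 0.0179) and Dusp22, an atypical member of the JNK pathway, fell by 0.59 (adjusted p = 0.00482). The Dusp9 signal was low, with means of 5.56 in BG and 6.08 in BF soleus, below the array medians. In BF vs. FC, Dusp13 and Dusp9 rose and Dusp22 and Dusp7, a cytoplasmic ERK phosphatase, fell (Dusp7 by 0.82, adjusted p = 0.0366), where 23.7% of all probe sets passed. None of the 12 passed in EDL (limma), where at an unadjusted p under 0.05 there were 2 in BF vs. BG, 2 in BF vs. FC and 0 in FC vs. BG. Including the 6 genes, 3 of 8 typical MAP kinase phosphatases rose and none fell in soleus of BF vs. BG, and 1 of 15 atypical members rose and 3 fell, where 10.3% of all probe sets rose and 11.9% fell. Their median log2 fold changes were 0.05 and 0.19, beside 0.04 over all probe sets.

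**Figure D4:**
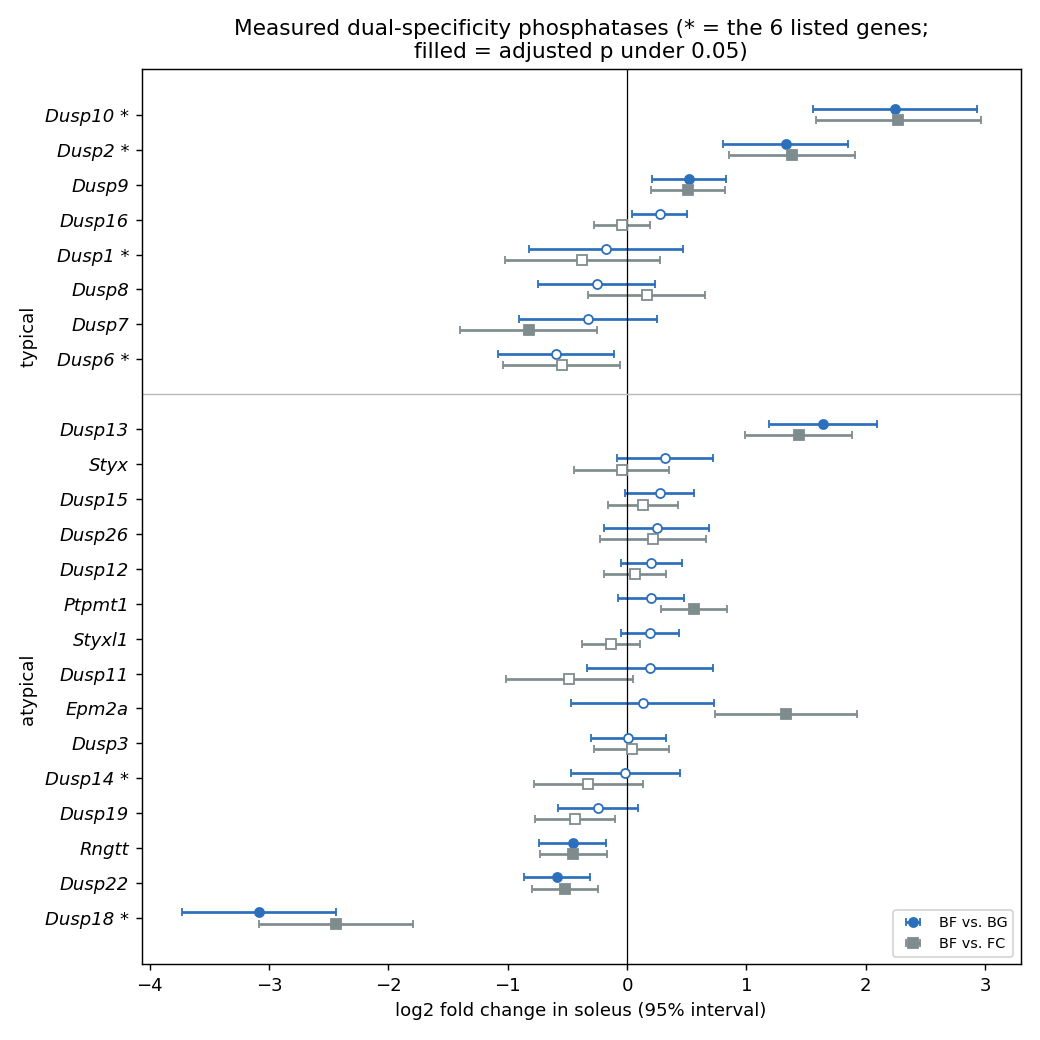
Log2 fold change in soleus (horizontal axis) with its 95% interval for the measured typical (top) and atypical (bottom) dual-specificity phosphatases, in BF vs. BG and BF vs. FC; filled points have an adjusted p under 0.05, and a star marks the 6 genes. Dusp10 and Dusp18 lie at the ends, and Dusp13 has the largest increase among the atypical members.

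Genes of the kinase cascades that these phosphatases act on are given beside the 22.3% of all probe sets that passed in this comparison. Of 10 MAP kinases, none rose and 2 fell in soleus of BF vs. BG, Nlk by 0.47 and Mapk9 (JNK2) by 0.29. Of 6 MAP kinase kinases, Map2k3 rose by 0.52 and Map2k6 fell by 0.51, both of which activate p38. Of 17 MAP kinase kinase kinases, Map3k8 rose by 2.20 ± 0.44 (adjusted p = 0.00237) and 2 fell, Map3k12 by 0.54 and Taok1 by 0.53. Of 5 kinases activated by MAP kinases, none rose and 2 fell, Mapkapk2, a substrate of p38, by 0.87 (adjusted p = 0.000533) and Mapkapk5 by 0.59. None of 6 MAP kinase scaffolds passed. At an unadjusted p under 0.05 there were 3, a count that cannot be read without the share of all probe sets at that cut-off. In soleus of BF vs. FC, where 23.7% of all probe sets passed, 1 of the 10 MAP kinases rose and 2 fell. Of the 6 MAP kinase kinases none rose and 1 fell there. Their highest log2 fold change was 0.18, so the increase of Map2k3 over BG was not seen over FC. Of the 17 MAP kinase kinase kinases 1 rose and 4 fell against FC.

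Other inhibitors of the pathway moved in both directions in the same comparison. Of 9 Sprouty, Spred and Ras GTPase-activating genes, Rasa3 rose by 0.44, and Spred2 and Spry1 fell by 0.53 and 0.40. Of 7 phosphatases of other families that act on MAP kinases, Ptpn5 rose by 0.56 and 4 fell. Ptprr, Ppm1a and Ppp2ca were lower by 0.72, 0.65 and 0.53 on the log2 scale. The Ptpn5 signal was low, with means of 4.78 in BG and 5.34 in BF soleus, below the array medians. In soleus of BF vs. FC 1 of these 7 phosphatases rose and 2 fell, where 9.94% of all probe sets rose and 13.8% fell. Whether these were the same genes is not given here. Ppp2ca averaged 11.51 in BF soleus, 11.72 in FC soleus and 12.05 in BG soleus. Of 21 immediate early genes and ERK targets, 11 rose and none fell, where 10.3% of all probe sets rose and 11.9% fell, with Atf3, Egr1 and Fos higher by 3.14, 2.48 and 2.41 on the log2 scale, and their median was 0.82 beside 0.04 over all probe sets. In BF vs. FC of soleus 14 of the 21 rose and none fell. In EDL none of the 21 passed in BF vs. BG, where only 0.385% of all probe sets did, and 0 had an unadjusted p under 0.05. In BF vs. FC of EDL none passed either, where 3.77% of all probe sets did. There 2 were higher at an unadjusted p under 0.05, and the highest log2 fold change was 1.69.

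Markers of other cell types and of fibre type were read in the same soleus arrays. In BF vs. BG 10.3% of all probe sets rose and 11.9% fell. Of 9 T and B lymphocyte markers, 1 (Cd3d) rose in BF vs. BG, and their summed signal was 352 to 378 in BF, 292 to 348 in FC and 287 to 348 in BG. Of 11 macrophage markers, 1 (Cd68, by 3.40) rose, and their sum was 2158 to 4385 in BF, 2008 to 2513 in FC and 1446 to 1736 in BG. Of 5 adipocyte markers 4 rose, and their sum was 7315 to 15701 in BF, 6476 to 7795 in FC and 7722 to 9816 in BG. Of 7 endothelial markers 3 fell, and 1 of 6 neutrophil markers rose. Of 8 slow fibre markers, Casq2 fell, and each other had a log2 difference of -0.64 or lower without passing. For each of the 8, all BF soleus arrays lay below all BG soleus arrays, as in 18.1% of all probe sets. The test shared its spread with EDL, where these markers varied more. For Myh7 the SD was 2.23 in FC EDL, against 0.25 in BF soleus and 0.03 in BG soleus. Of 9 fast fibre markers 5 rose, among them Actn3 by 4.43 and Myh4 by 4.26. The part of these cell types and fibres in the changes of Dusp2, Dusp10 and Dusp18 was not tested.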

How the data were processed

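The authors hybridised RNA of each muscle to Affymetrix mouse expression arrays and deposited log2 signals made with RMA in Partek from all 18 arrays together (background correction, quantile normalization over arrays, logarithm to base 2 and summary of probes by median polish). The deposited log2 values run from 2.11 to 14.53 and were used unchanged. After 64 control probe sets were left out, 22626 were tested; the number of arrays limits the precision.

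Of all probe sets, 20393 name 1 gene in the platform annotation, 691 several and 1606 none, and 20364 were matched to a current gene record. For a gene with several probe sets the one with the highest mean signal was used. All 18 arrays entered 1 limma 3.58.1 fit in R 4.3.3, in which each of 6 groups had its own mean and variances were moderated by empirical Bayes (degrees of freedom 12 residual, 5.10 prior). P values were adjusted by the method of Benjamini and Hochberg over all probe sets. Figures and promoter searches used Python 3.11.15 with matplotlib 3.10.9, numpy 2.4.6 and pandas 2.3.3. The fit was tested on simulated data with 1 spread per probe set in all groups. That test therefore did not cover the larger spread of the 6 genes in BF soleus.

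The 6 genes and the gene lists were chosen with earlier results of these data known. Named genes are the 6 members, other Dusp genes past the test, up to 3 genes per list with the largest change past the test, and the 3 genes most correlated with each member. The alternatives were ordinary contrasts, array weights, other normalizations, a filter on dim probe sets, a variance trend, each muscle alone, replicate blocks, other call rules and leaving out each array. In the labels the satellite of BF EDL replicates 2 and 3 reads Bion M2 and M3, and was treated as Bion M1. Promoters came from RefSeq (GRCm38.p6).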

Additional observations from a re-analysis of the deposited data

Results flagged for a closer look

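The flight response of 3 of the genes differed between soleus and EDL by the test of the difference itself. The change of BF vs. BG in soleus minus that in EDL was 1.32 for Dusp2, 1.81 for Dusp10 and -3.66 for Dusp18 on the log2 scale. The same difference for BF vs. FC was 2.33 for Dusp10 and -2.25 for Dusp18. Each value comes with 3 arrays in every group of each muscle, and the comparisons share their BF arrays. Apart from that of Dusp18 against BG, these values passed near the threshold.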

How the results depend on the processing

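Of 1741 recomputed log2 fold changes of the 6 genes, over 66 results, 1678 kept their direction and side of the threshold, 15 no longer passed and 6 passed anew. The other 42, in 21 results, changed sign; none of these had passed or passed then. The soleus calls of Dusp2, Dusp10 and Dusp18 in BF vs. BG and BF vs. FC held in every alternative in which the gene was tested. The filter on probe sets above the median signal removed Dusp2. Every alternative shared 1 spread per probe set over several groups. Array weights scaled it by 1 weight per array, common to all probe sets. A separate spread of each probe set for BF soleus was not tried. In BF vs. BG the adjusted p reached at most 0.0119 for Dusp2, 0.00274 for Dusp10 and 0.000379 for Dusp18. The interaction against BG was less stable. Its count of 3 genes became 1 (Dusp18) with ordinary contrasts and ran from 1 to 3 when 1 array was left out. It was 1 without BG soleus replicate 2 (adjusted p 0.0679 for Dusp2 and 0.0517 for Dusp10), BG soleus replicate 3 (0.0631 and 0.0597), BG EDL replicate 2 (0.0566 and 0.0523) or BG EDL replicate 3 (0.0745 and 0.0517). Dusp2 alone was lost without BF soleus replicate 1 (0.0587), BF EDL replicate 1 (0.0538) or BF EDL replicate 2 (0.0571). The interaction count against FC, 2, became 0 with ordinary contrasts, and Dusp2 was added with array weights (0.0164) and without BF soleus replicate 3 (0.00303). For soleus vs. EDL in BF the count of 2 became 1 with the filter on dim probe sets, and in BG it ran from 1 to 2, with Dusp6 added without BF soleus replicate 3 (0.0372). These causes were not tested.

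Same-numbered arrays were compared by the correlation of their deviations from the group mean. Across muscles it was -0.05 to 0.37 (9 pairs, 6 above 0.1), with 0.37, 0.16 and 0.20 in FC. Across conditions it was -0.13 to 0.30 (18 pairs, 7 above 0.1). These values do not settle whether a soleus and an EDL of the same number came from 1 mouse. The numbers were not taken as pairs in the main fit. With the number as a replicate block, 3 genes passed in soleus BF vs. BG, 3 in BF vs. FC, 3 in the interaction against BG and 2 against FC, as without it, and no count changed.

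With 1 array left out, the values that changed sign had these ranges. In soleus BF vs. BG they were -0.16 to 0.15 for Dusp14. In soleus FC vs. BG they were -0.12 to 0.019 for Dusp2, -0.073 to 0.034 for Dusp10 and -0.17 to 0.023 for Dusp6. In EDL BF vs. BG they were -0.13 to 0.11 for Dusp2, -0.22 to 0.0026 for Dusp6 and -0.40 to 0.089 for Dusp14. In EDL BF vs. FC they were -0.52 to 0.043 for Dusp18 and -0.46 to 0.34 for Dusp10. In EDL FC vs. BG they were -0.23 to 0.40 for Dusp1 and -0.14 to 0.35 for Dusp14. In the interaction against BG they were -0.10 to 0.39 for Dusp14 and -0.14 to 0.57 for Dusp1. In the interaction against FC they were -0.25 to 0.40 for Dusp1, -0.43 to 0.21 for Dusp6 and -0.21 to 0.11 for Dusp14. In soleus vs. EDL in BF they were -0.31 to 0.33 for Dusp6 and -0.27 to 0.047 for Dusp14. In soleus vs. EDL in FC they were -0.0053 to 0.19 for Dusp6 and -0.11 to 0.016 for Dusp14. With array weights the values of opposite sign were 0.0012 for Dusp2 in soleus FC vs. BG, -0.0017 for Dusp2 in EDL BF vs. BG, 0.072 for Dusp6 in EDL BF vs. BG, -0.24 for Dusp1 in the interaction against BG and -0.20 for Dusp1 in the interaction against FC. With the replicate block the values of opposite sign were 0.031 for Dusp6 in soleus vs. EDL in BF, 0.018 for Dusp14 in soleus vs. EDL in FC and 0.037 for Dusp2 in soleus vs. EDL in BG.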
